A study of Homo sapiens with 12 samples.

Results

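The genes described here are the 195 zinc-finger genes outside chromosome 19 that lay near H3K27me3, a repressive histone mark, in T24, a bladder cancer line of human origin kept as an established cell line. A gene entered when its symbol was ZNF followed by a digit, it lay on chromosomes 1 to 18 or 20 to 22, and a deposited peak of any of the 4 libraries had its centre within 10 kb of the gene's transcription start. They make up 195 of the 18981 genes that met the same distance limit. The members were thus selected on measured peaks of these same libraries, so their values in the comparisons below are a description and carry no test.

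The 4 ChIP-seq libraries came from T24 cells that received 5 µM GSK-126, 5 µM fenretinide, both compounds at 5 µM each (the combination), or DMSO (vehicle), with 72 h given for the compounds. GSK-126 inhibits EZH2, and fenretinide is a synthetic retinoid. Each condition had 1 library from 1 cell line, and the differences below have no replicate behind them. Library totals were 15812933 to 18928836 fragments over 273664 intervals, each the union of overlapping peaks, and the labels name no spike-in. A rise or fall below is therefore one in a library's share of fragments.

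EZH2 is the enzyme of the Polycomb complex that places H3K27me3, a mark of silenced developmental genes. Most human zinc-finger genes of the ZNF series encode DNA-binding proteins with tandem C2H2 fingers, and many of them also carry a KRAB domain, which recruits the co-repressor TRIM28 and with it the enzyme that writes H3K9me3. These genes arose by repeated duplication and often stand in clusters, the largest of them on chromosome 19. The 3' ends of many KRAB zinc-finger genes carry H3K9me3 in human cells, a mark not measured here.

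Of the 195 members, 176 are protein coding in RefSeq, 14 are pseudogenes and 5 are long non-coding RNAs. They stand on 20 chromosomes, with 30 on chromosome 7 and 21 on chromosome 16. Their peaks fell in 339 distinct intervals of 5033 kb in all, of which 14 were shared by several members. The members form 179 groups that share no interval, and 51 members share an interval with at least 1 other gene. Members in the same interval have the same fragments and are not independent observations.

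Promoter windows of 300 bases (250 before to 50 after the start) show what the mark covered at single genes. The sequences are from RefSeq (GRCh38.p14), where 146 members matched, and all 195 members matched a RefSeq gene. Capitals mark CG dinucleotides, searched as CG, which reads the same on both strands. Of the 27305 RefSeq windows, 95.8% hold at least 1 CG, and the median window holds 14. ZNF716 and ZNF479 are shown from the 16 members called higher with GSK-126 whose window overlapped a peak with GSK-126 and none with vehicle. ZNF423 and ZNF467 are shown from the 7 members called lower with GSK-126 whose window overlapped a peak with vehicle and none with GSK-126. ZNF891 is shown because it led the rises with GSK-126 while its window overlapped no peak in any library. The windows were ZNF716 at chr7:57449927-57450226 on the plus strand, ZNF479 at chr7:57139815-57140114, ZNF423 at chr16:49664275-49664574, ZNF467 at chr7:149773539-149773838 and ZNF891 at chr12:133130225-133130524, the last 4 on the minus strand.
ZNF716: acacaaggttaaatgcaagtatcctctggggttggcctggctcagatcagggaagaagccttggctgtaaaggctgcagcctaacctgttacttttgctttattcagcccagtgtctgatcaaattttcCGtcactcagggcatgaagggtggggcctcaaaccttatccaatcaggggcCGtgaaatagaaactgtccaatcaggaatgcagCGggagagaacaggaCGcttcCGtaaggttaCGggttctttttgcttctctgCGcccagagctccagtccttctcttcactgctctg
ZNF479: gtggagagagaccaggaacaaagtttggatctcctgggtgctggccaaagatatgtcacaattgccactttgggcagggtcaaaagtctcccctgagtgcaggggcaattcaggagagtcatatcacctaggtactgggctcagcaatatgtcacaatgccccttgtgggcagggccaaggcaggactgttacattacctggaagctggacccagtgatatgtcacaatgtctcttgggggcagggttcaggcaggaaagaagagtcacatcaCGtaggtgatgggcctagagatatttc
ZNF423: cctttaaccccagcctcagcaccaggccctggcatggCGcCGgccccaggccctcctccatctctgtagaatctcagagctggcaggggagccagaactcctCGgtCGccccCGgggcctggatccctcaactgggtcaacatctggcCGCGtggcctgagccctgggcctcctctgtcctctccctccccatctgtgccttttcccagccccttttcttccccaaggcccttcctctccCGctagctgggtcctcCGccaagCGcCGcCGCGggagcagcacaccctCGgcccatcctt
ZNF467: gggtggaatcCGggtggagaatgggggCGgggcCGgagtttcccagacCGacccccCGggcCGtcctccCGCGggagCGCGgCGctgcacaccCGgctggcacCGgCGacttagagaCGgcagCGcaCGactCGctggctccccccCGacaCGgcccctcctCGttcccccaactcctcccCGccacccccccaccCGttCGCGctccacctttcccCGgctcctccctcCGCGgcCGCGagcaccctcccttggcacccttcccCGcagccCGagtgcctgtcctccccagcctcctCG
ZNF891: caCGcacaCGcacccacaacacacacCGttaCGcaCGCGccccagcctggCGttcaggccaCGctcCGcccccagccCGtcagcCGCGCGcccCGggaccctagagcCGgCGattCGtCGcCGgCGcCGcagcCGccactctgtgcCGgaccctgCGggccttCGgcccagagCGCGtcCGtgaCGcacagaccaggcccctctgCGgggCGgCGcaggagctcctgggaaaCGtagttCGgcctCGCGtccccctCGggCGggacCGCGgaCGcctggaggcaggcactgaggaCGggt
These windows held 7 CG in ZNF716, 1 in ZNF479, 14 in ZNF423, 33 in ZNF467 and 42 in ZNF891. The median window held 18 CG in members called higher and 24 in those called lower, so the printed windows do not stand for these sets. The ZNF423 window lies inside the RefSeq gene span (chr16:49487524-49859279), at a start other than the outermost one.

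GSK-126 against vehicle asked where the mark lay after EZH2 was inhibited. Of 148 members with at least 50 fragments in the pair of libraries, 71 were higher with GSK-126, 31 were lower and 46 were neither. A call needed a ratio of library shares of at least 2 or at most 0.5, with a 95% Clopper-Pearson counting interval that excluded 1. Over all 14725 genes measured, 11.5% were called higher and 41.4% lower. The median log2 ratio was 0.67 over the members and -0.79 over all genes. A further 47 members fell under the fragment minimum and have no call. The 107 measured members with a vehicle peak within 10 kb had 45 higher and 24 lower, with a median log2 ratio of 0.14. The 41 that entered without a vehicle peak had 26 higher and 7 lower, with a median of 2.83. Entry through peaks of the other libraries only favours a high ratio to vehicle by construction. Background scaling used the consensus intervals with the fewest fragments per base over all libraries together, which are themselves peak intervals. It lowered every log2 ratio by 0.77, which gave 51 members higher and 52 lower with a median of -0.093. Of all genes, 7.23% then counted as higher and 68.7% as lower. Restricting the members to intervals with a peak of that gene in the vehicle list left 100 measured, with 31 higher, 33 lower and a median of -0.11, beside -0.88 over all genes treated in the same way.

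The level of the mark, in fragments per kb per 1000000 interval fragments, describes the members within a library. In the 71 members called higher, the median level was 1.37 with GSK-126, 0.261 with fenretinide, 1.06 with the combination and 0.223 with vehicle. In the 31 called lower, it was 0.344 with GSK-126, 0.779 with fenretinide, 0.382 with the combination and 0.924 with vehicle. All measured genes had medians of 0.541, 0.746, 0.578 and 0.853 in that order of libraries. The mean over all intervals is 0.771 in each library by construction, since the level divides by the library's own interval total. It therefore says nothing about the total amount of the mark. The median of the members called higher thus lay below that of all genes with vehicle and above it with GSK-126, which the choice of these members by the same 2 libraries favours, and single members reached 0.909 with vehicle. Their intervals had a median length of 34.1 kb per member, against 12.6 kb in the members called lower and 18.4 kb in those called neither. Intervals join the peaks of all 4 libraries, so their length is not independent of the call.

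**Figure D1:**
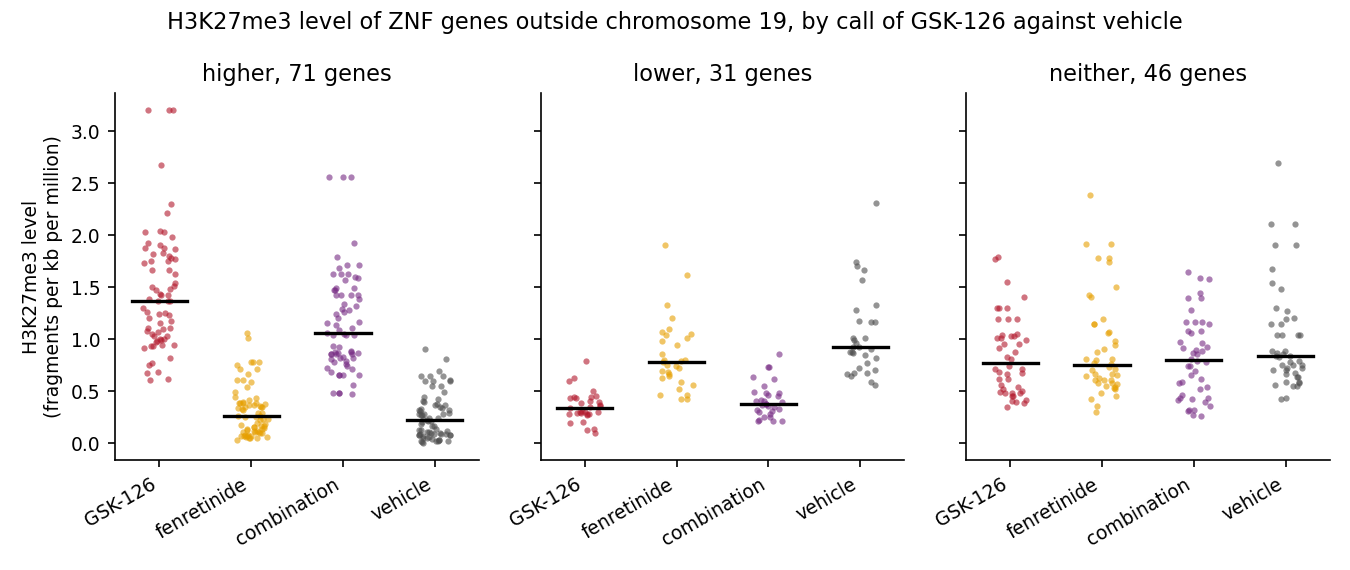
H3K27me3 level (fragments per kb per 1000000 interval fragments) of each measured member in each of the 4 libraries, in panels by the call of GSK-126 against vehicle. Points are genes and black lines are medians, which were 1.37 with GSK-126 and 0.223 with vehicle in the genes called higher.

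ZNF891, near the end of chromosome 12, had 1474 fragments with GSK-126, 65 with fenretinide, 1003 with the combination and 27 with vehicle. They lay in 1 interval of 47.3 kb (chr12:133082138-133129440), which does not reach the promoter window printed above. The ratio of GSK-126 to vehicle was 57.9 (39.6 to 88.2), the largest by its lower bound. ZNF7, on chromosome 8, had 727 fragments with GSK-126, 27 with fenretinide, 457 with the combination and 16 with vehicle, a ratio of 48.2 (29.5 to 84.8). ZNF124, at the end of chromosome 1, had 754, 34, 481 and 17 fragments in the same order of libraries, a ratio of 47.0 (29.2 to 81.2). Both libraries with GSK-126 stood above both libraries without it in these 3 genes.

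ZNF436 had 227 fragments with GSK-126, 9 with fenretinide, 141 with the combination and 3 with vehicle, and its ratio of 80.2 had a wide interval (27.1 to 392). ZNF35 had 166, 17, 138 and 3 fragments in that order, a ratio of 58.7 (19.7 to 287). ZNF510 had 1720, 126, 1246 and 76 fragments, a ratio of 24 (19.1 to 30.6). Its longest interval (chr9:96786725-96842116) lies upstream of the gene, which spans chr9:96754553-96778087 on the minus strand. The pseudogene ZNF733P (ratio 31.4, 16.8 to 66.1), ZNF721 (28.6, 16.5 to 54.2), ZNF695 (20.3, 16.6 to 25.1) and ZNF716 (20.7, 15.8 to 27.6) complete the 10 largest rises. ZNF271, with 52 fragments with GSK-126, 2 with fenretinide, 26 with the combination and 0 with vehicle, was at least 18.4-fold higher with GSK-126 when the 0 was set to a floor of 3 counts in that library. Counts of 0 to 3 in vehicle make the size of the ratio imprecise and leave its direction unchanged within the counting interval. ZNF7 had 1 interval with a peak of that gene in the vehicle list, with 0, 4, 3 and 8 fragments (log2 ratio -4.0), under the minimum for a call and opposite in direction to the sum of its intervals.

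**Figure D2:**
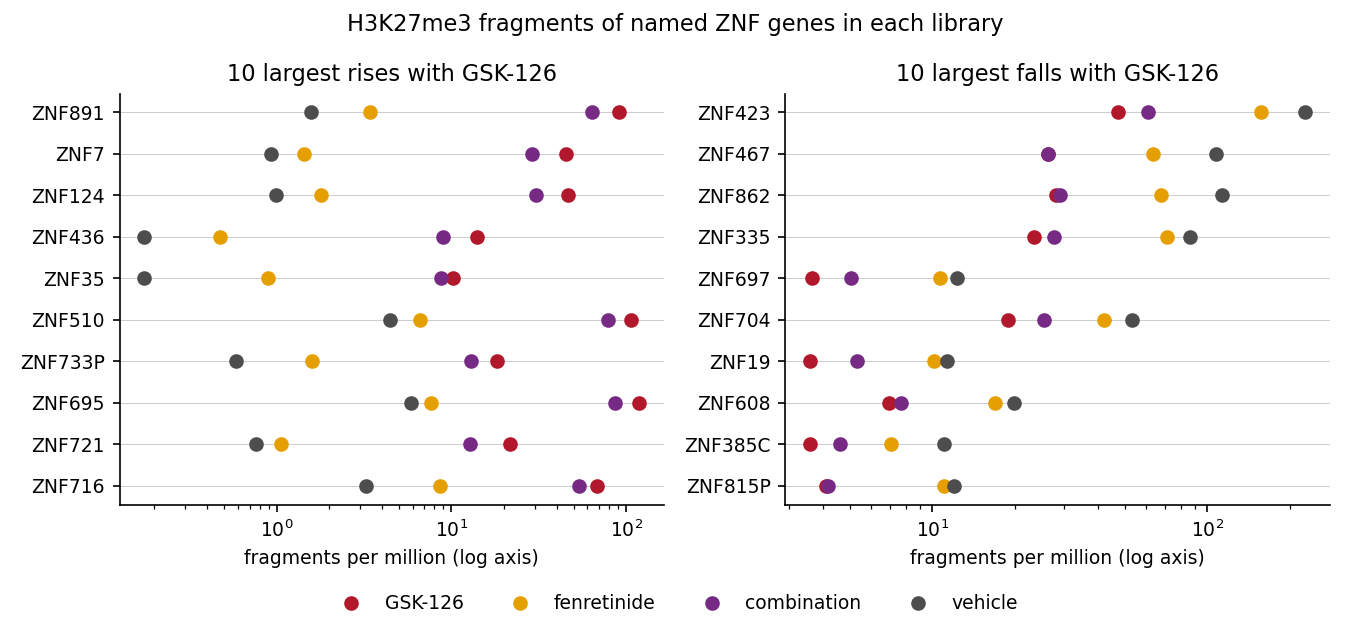
Fragments per 1000000 interval fragments (log axis) of the 10 members with the largest rises and the 10 with the largest falls with GSK-126 over vehicle, in each library. Among the rises, GSK-126 and the combination stand to the right of fenretinide and vehicle for each gene, and among the falls to their left.

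The members called lower were led by ZNF423, a multi-finger factor that partners early B-cell factors and SMADs. It had 767 fragments with GSK-126, 2967 with fenretinide, 962 with the combination and 3880 with vehicle in 1 interval of 130 kb (chr16:49770625-49900533), a ratio of 0.210 (0.194 to 0.227). ZNF467, known from mouse as a promoter of fat cell formation, had 426 fragments with GSK-126, 1204 with fenretinide, 415 with the combination and 1842 with vehicle, a ratio of 0.245 (0.220 to 0.273). ZNF862 shares the 64.7 kb interval of ZNF467 (chr7:149772901-149837556) and had 455, 1282, 460 and 1935 fragments in its 3 intervals, a ratio of 0.249 (0.225 to 0.276). The libraries with GSK-126 had the fewest fragments in all 3 genes. The window printed for ZNF467 lies in its counted interval, but that of ZNF423 lies outside. The interval at the ZNF423 window (chr16:49658080-49666539), not counted for the gene, held 14 fragments with GSK-126, 108 with fenretinide, 26 with the combination and 112 with vehicle, a ratio of 0.133 (0.0702 to 0.232).

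ZNF335, a component of a histone H3K4 methyltransferase complex and a human microcephaly gene, had 378 fragments with GSK-126, 1353 with fenretinide, 437 with the combination and 1485 with vehicle. Its ratio was 0.270 (0.240 to 0.302), and its interval is shared with MMP9, a matrix metalloprotease gene. The other large falls were ZNF697 (0.297, 0.218 to 0.397), ZNF704 (0.354, 0.310 to 0.404), ZNF19 (0.317, 0.232 to 0.427), ZNF608 (0.351, 0.281 to 0.436), ZNF385C (0.325, 0.238 to 0.439) and the pseudogene ZNF815P (0.340, 0.253 to 0.450). The intervals of ZNF385C that belong to no other gene held 12, 33, 8 and 21 fragments, too few for a call. Also lower were ZNF683, known as Hobit, a factor of tissue-resident lymphocytes, with 48, 124, 55 and 152 fragments (0.335, 0.237 to 0.466), and ZNF469, the gene of brittle cornea syndrome, with 93, 160, 72 and 218 (0.452, 0.351 to 0.579). These 2 genes were chosen after their values were seen.

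The highest levels with vehicle belonged to members that were not called or fell. Choosing members by their vehicle level favours a low ratio to the same vehicle library, so nothing is read from this. Over all genes, 11.5% were called higher and 41.4% lower with GSK-126. ZNF831, in an interval of 433 kb shared with EDN3, the endothelin 3 gene, led with a level of 1.41 with GSK-126, 2.39 with fenretinide, 1.59 with the combination and 2.70 with vehicle. Its fragments numbered 9853, 19614, 10884 and 20017, a GSK-126 to vehicle ratio of 0.522 (0.510 to 0.535), just outside the limit for a fall. ZNF334 and the pseudogene ZNF663P share 1 interval of 266 kb with 5169, 9685, 5884 and 9646 fragments (0.568, 0.549 to 0.588). ZNF280B, which shares its interval with ZNF280A and PRAME, had 1508, 3098, 1696 and 3005 (0.532, 0.50 to 0.566). ZNF521, a regulator of blood and neural progenitors, had 1834, 2360, 1764 and 1943 fragments and a ratio of 1.00 (0.939 to 1.07), and was chosen after its values were seen.

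The limits divide a continuous range. Just past a ratio of 2 lay ZNF595 (2.1), ZNF273 (2.22, with a log2 ratio of -0.69 in intervals with a vehicle peak) and ZNF883 (2.22), and just under it ZNF852 (1.74), ZNF660 (1.74) and ZNF365 (1.63). Just past 0.5 on the low side lay ZNF267 (0.493, with a log2 ratio of 1.22 at a 50 kb distance), ZNF638 (0.467) and ZNF48 (0.462), and just above it ZNF425 (0.50), ZNF295-AS1 (0.507) and ZNF831. ZNF425 was counted as neither because its unrounded ratio exceeded the limit. At the distance limit, ZNF623 (9090 bp, 296, 28, 212 and 19 fragments), ZNF487 (9643 bp, 27, 6, 18 and 1) and ZNF619 (9927 bp, 40, 9, 40 and 4) lay just inside. Just outside lay ZNF140 (10242 bp) with 1298, 94, 922 and 46 fragments and a ratio of 29.9 (22.3 to 41.1), ZNF827 (11087 bp, 2, 11, 1 and 6) and ZNF488 (11264 bp, 2, 10, 2 and 4).

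Genes of the KRAB co-repressor machinery, the partners of many zinc-finger proteins, mostly had no interval within the distance limit. Of 24 co-repressor and heterochromatin genes listed (under 25 symbols, as TASOR and FAM208A are the same gene), 14 had no interval, 7 had one with too few fragments and 3 were measured, and these 3 were lower with GSK-126. TRIM28, the scaffold that KRAB domains bind, had 74 fragments with GSK-126, 211 with fenretinide, 92 with the combination and 298 with vehicle, a ratio of 0.263 (0.201 to 0.341). ATRX, a chromatin remodeller, had 17, 37, 18 and 38, and DNMT1, the maintenance DNA methyltransferase, had 24, 55, 29 and 57, with ratios of 0.474 and 0.447. Falls were the common call among all genes, at the 41.4% given above. Of 12 urothelial marker genes, 8 were measured, of which 3 were called lower (UPK1A, UPK2 and UPK3A), 5 neither and none higher. Among the 5, the uroplakin gene UPK1B had 332 fragments with GSK-126, 280 with fenretinide, 303 with the combination and 225 with vehicle, a ratio of 1.56 (1.32 to 1.86). The fragments near these markers describe the mark and do not test the cell type.

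Other zinc-finger genes were measured in the same way. The 50 genes with ZSCAN, ZKSCAN, ZFP or ZBTB symbols outside chromosome 19 had 33 measured, of which 13 were higher and 12 lower, with a median log2 ratio of -0.26. The 224 ZNF genes of chromosome 19 had 195 measured, of which 171 were higher and 5 lower, with a median of 3.08. The difference between these sets has no test, since each is a set of genes in the same pair of libraries.

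The annotation of the members' peaks differed between the libraries. Of the members' peaks, 88 of 194 lay in introns with GSK-126, 89 of 248 with fenretinide, 120 of 251 with the combination and 66 of 220 with vehicle. Intergenic peaks made up 40.2% with GSK-126, 56.5% with fenretinide, 39.0% with the combination and 62.3% with vehicle. The peaks spanned 949 kb with GSK-126, 605 kb with fenretinide, 1264 kb with the combination and 686 kb with vehicle. A peak lay within 10 kb of 121 members with GSK-126, 127 with fenretinide, 145 with the combination and 128 with vehicle. All 4 libraries had one at 56 members, GSK-126 and the combination alone at 32, and fenretinide and vehicle alone at 21. The same shares over all genes and over all peaks of each library are not given here. These annotations and patterns therefore cannot be told apart from differences between the whole peak lists. Of the 71 members called higher, 22 had no GSK-126 peak centre within 10 kb, as at ZNF716 and ZNF479, where a GSK-126 peak nonetheless overlapped the promoter window.

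A count that does not depend on the distance to a peak centre used the RefSeq spans of all 255 protein-coding ZNF genes on these chromosomes, of which 175 are members. On average 29.9% of such a span lay in peaks with GSK-126, 9.02% with fenretinide, 29.8% with the combination and 9.35% with vehicle. Over 17420 other protein-coding genes, the averages were 11.9%, 18%, 14.4% and 19.6%. More than 50% of the span lay in peaks for 77 of the 255 genes with GSK-126, 17 with fenretinide, 79 with the combination and 21 with vehicle. These are shares of 30.2%, 6.67%, 31.0% and 8.24%, beside 8.35%, 16.8%, 10.8% and 18.8% of the other genes. Summing the intervals that overlap a span, 102 of 146 measured ZNF genes were higher with GSK-126 than with vehicle and 14 were lower, with a median log2 ratio of 2.29. Among all 8184 gene spans measured, 20% were higher and 33.2% lower. The 80 ZNF genes that are not members gave 26 measured spans, of which 19 were higher and 2 lower. The family had been noticed in earlier results of these data, so the spans are no independent support for it.

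The position along the gene was then examined in 199 ZNF genes and 11747 other genes of at least 5 kb. Between the midpoint and the end of the gene, a given position lay in a peak in 36.4% of ZNF genes with GSK-126, 8.48% with fenretinide, 36.0% with the combination and 8.82% with vehicle. In the other genes these shares were 9.37%, 15.1%, 11.8% and 16.2%. In the last kb before the start, the ZNF shares were closer, at 14.6% with GSK-126, 7.04% with fenretinide, 16.1% with the combination and 11.1% with vehicle. In the 20 kb upstream, they were 29.5%, 25.1%, 33.3% and 26.4%, and in the 20 kb downstream 37.5%, 20.6%, 37.9% and 21.5%. The gap between the libraries with and without GSK-126 was thus wider in the gene body than upstream.

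**Figure D3:**
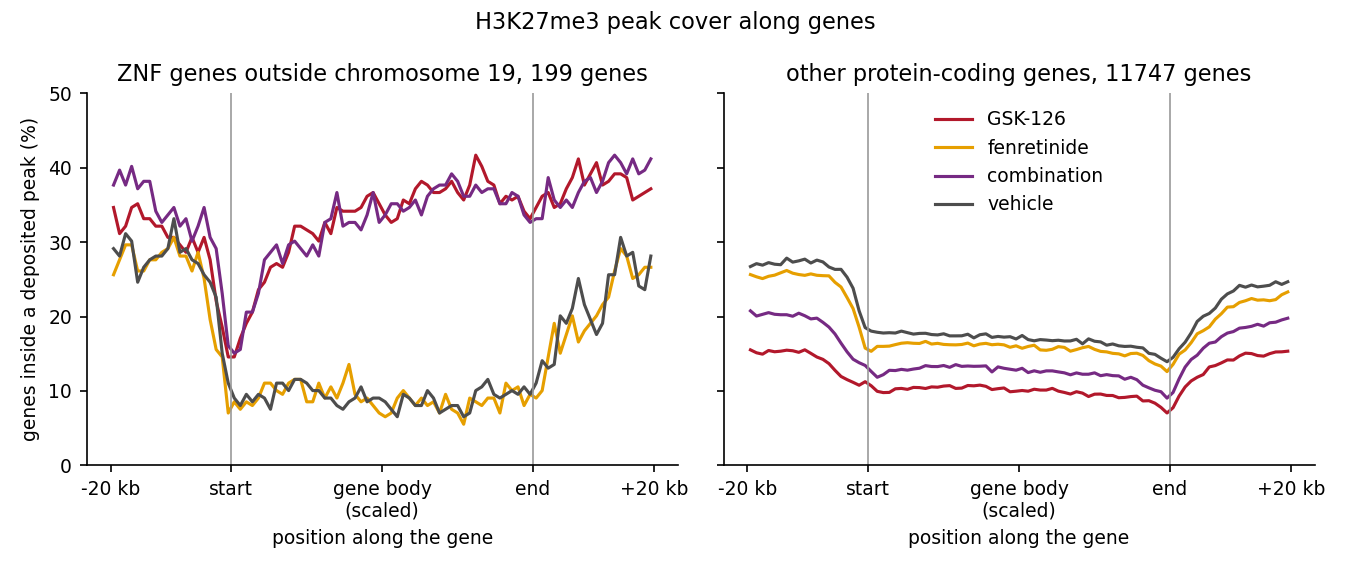
Share of genes (%) in which each position lies inside a deposited H3K27me3 peak, from 20 kb upstream of the start to 20 kb downstream of the end with the gene body scaled to one length, for each library. In 199 ZNF genes, GSK-126 and the combination stand above fenretinide and vehicle across the body (36.4% and 36.0% against 8.48% and 8.82% between midpoint and end), while in 11747 other genes they stand below.

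Peaks at promoter windows are given by call as a description, since the calls come from the same GSK-126 and vehicle libraries and nothing is read from the difference. Of all 24736 RefSeq windows on these chromosomes, 16.3% overlapped a peak with GSK-126, 20.9% with fenretinide, 18.8% with the combination and 23.2% with vehicle. Of 53 members called higher with a window, 20 overlapped a peak with GSK-126, 6 with fenretinide, 19 with the combination and 4 with vehicle. Of 23 called lower, 1 overlapped a peak with GSK-126, 4 with fenretinide, 1 with the combination and 7 with vehicle. The median window held 18 CG and 59.7% G and C in members called higher, and 24 CG and 67.0% G and C in those called lower. The range of CG counts was 0 to 42 and 3 to 50, so the windows of the sets overlap widely.

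Fenretinide against vehicle left most members within the limits. Of 139 members measured, 2 were higher, 1 was lower and 136 were neither, with a median log2 ratio of -0.04. Over all genes, 0.337% passed the limit upward and 1.5% downward, with a median of -0.15. ZNF716, the gene whose promoter window is printed above, had 162 fragments with fenretinide and 56 with vehicle, a ratio of 2.62 (1.92 to 3.61). ZNF891 had 65 against 27 (2.18, 1.37 to 3.55), and ZNF706 was the one lower member, with 27 against 59 (0.414, 0.253 to 0.664). ZNF891 and ZNF706 were named because the counts are small, after their values were seen. ZNF423 and ZNF467, which led the falls with GSK-126, had fenretinide to vehicle ratios of 0.692 (0.660 to 0.726) and 0.592 (0.550 to 0.637), short of the limit. Over gene spans, 10 of 120 measured ZNF genes were higher and 0 lower at these limits, beside 1.44% and 1.74% of all spans. With 1 library per condition no p-value was computed for these counts.

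The combination against vehicle gave values near those of GSK-126 alone. Of 147 members measured, 65 were higher and 29 lower, with a median log2 ratio of 0.31, beside 9.86% higher, 32.9% lower and a median of -0.64 over all genes. The same vehicle library served here and in the GSK-126 comparison, so the values stand side by side only. ZNF891 had a ratio of 40.2 (27.5 to 61.4), ZNF124 of 30.7 (18.9 to 53.1) and ZNF7 of 30.9 (18.9 to 54.6). ZNF436 had 50.9 (17.1 to 250) and ZNF35 had 49.8 (16.7 to 245). The largest falls were at ZNF467 (0.244, 0.219 to 0.272), ZNF862 (0.258, 0.232 to 0.285), ZNF423 (0.269, 0.25 to 0.288), ZNF335 (0.319, 0.286 to 0.355) and ZNF815P (0.347, 0.259 to 0.460). With background scaling, 42 members were higher and 58 lower in this comparison, and the median turned to -0.51.

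The combination against GSK-126 asked what fenretinide added to the inhibitor. None of 143 members measured was called in either direction by the ratio limits, beside 0.443% of all genes higher and 0.501% lower. No p-value exists with 1 library per condition, so no count at an unadjusted p can be given. The median log2 ratio was -0.16 over the members and 0.08 over all genes. Of the 71 members called higher with GSK-126, 67 had a smaller share in the combination, with a median log2 ratio of -0.33. Of the 31 called lower, 6 had a smaller share in the combination, with a median of 0.24. ZNF891 gave 0.695 (0.641 to 0.754) and ZNF423 gave 1.28 (1.16 to 1.41), both with a counting interval that excluded 1, while ZNF467 gave 0.995 (0.867 to 1.14). Ratios ran from 0.511 at ZNF271 to 1.69 at ZNF618. The same GSK-126 library chose these sets and served in this comparison, so nothing is read from these 2 counts.

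The combination against fenretinide shares no library with GSK-126 against vehicle. Of 146 members measured, 62 were higher and 17 lower with the combination, with a median log2 ratio of 0.47, beside 9.43% higher, 18.7% lower and a median of -0.49 over all genes. With background scaling, 42 members were higher and 47 lower, and the median turned to -0.21. ZNF891 led with 18.5 (14.4 to 24.1), followed by ZNF7 (20.3, 13.7 to 31.1), ZNF124 (16.9, 12.0 to 24.7), ZNF510 (11.8, 9.85 to 14.3) and ZNF436 (18.8, 9.60 to 41.9). ZNF423 (0.388, 0.361 to 0.418), ZNF335 (0.387, 0.346 to 0.431), ZNF282 (0.302, 0.197 to 0.450), ZNF467 (0.413, 0.368 to 0.462) and ZNF862 (0.430, 0.385 to 0.478) led the falls. Over gene spans, 94 of 145 measured ZNF genes were higher and 4 lower, beside 17.7% and 11.9% of all spans.

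Of 144 members measured in both of these comparisons, 62 were higher in both, 13 were lower in both and none was called in opposite directions. Across 129 groups of members that share no interval, Pearson's r between the log2 ratios was 0.970 and Spearman's rho 0.968, and 122 groups had the same sign. These are correlations across genes, which are not independent replicates, and across 14043 other genes the values were 0.927 and 0.893. Of the 62 members higher in both, 58 had the smaller log2 ratio in the combination against fenretinide, with a median difference of -0.62. These members were chosen by the same ratios, and no matching count over other genes is given, so nothing is read from it. Over all genes the median log2 ratio was also smaller in size there, at -0.49 beside -0.79 for GSK-126 against vehicle.

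**Figure D4:**
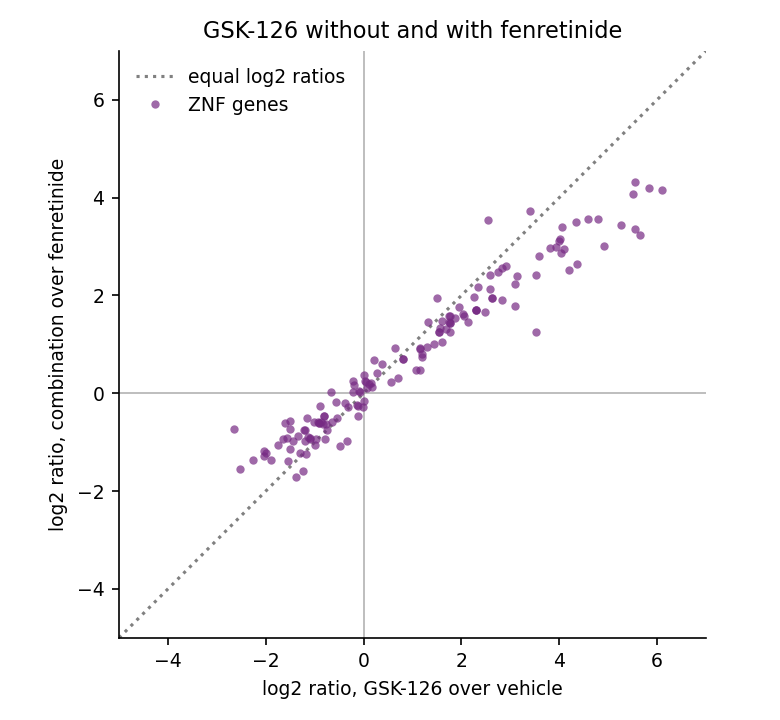
Log2 ratio of combination over fenretinide against log2 ratio of GSK-126 over vehicle for the 144 members measured in both, with each point a gene and the dotted line marking equal ratios. The 62 members higher in both lie mostly under the line, as 58 of them had the smaller ratio on the vertical axis. They were chosen by these same ratios, and no matching count over other genes is given.

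Some of the members stand in clusters, and most do not. In all, 12 neighbourhoods held at least 4 members with no gap over 500 kb, a grouping made after the values were seen. On chromosome 1 at 246945546 to 247172379, the 5 members from ZNF670-ZNF695 to ZNF124 were all higher with GSK-126. All intervals there held 2880 fragments with GSK-126, 234 with fenretinide, 2005 with the combination and 157 with vehicle, a GSK-126 to vehicle ratio of 19.5 (16.6 to 23). ZNF670, ZNF695 and their readthrough ZNF670-ZNF695 share an interval of this stretch with 1261, 117, 850 and 83 fragments. All intervals of ZNF670-ZNF695 together held 1270, 132, 867 and 96 fragments, so nearly all of its GSK-126 fragments lay in the shared one. Its unshared interval held 9, 15, 17 and 13 fragments, with a log2 ratio of -0.42 and too few fragments for a call. At the end of chromosome 4 (53321 to 499156), all 6 members were higher, with 8594, 1370, 6448 and 979 fragments and a ratio of 9.31 (8.71 to 9.96). On chromosome 18, all 3 measured members near ZNF397 and ZNF24 were higher, with 992, 146, 699 and 113 fragments and a ratio of 9.31 (7.66 to 11.4). The 1 other gene measured there was also higher, and none was measured in the stretches of chromosomes 1 and 4.

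On chromosome 7 at 64045434 to 65401136, 8 of 9 measured members from ZNF727 to ZNF92 were higher, with 18354, 6068, 14997 and 4918 fragments and a ratio of 3.96 (3.83 to 4.09). Of 6 other genes measured in that stretch, 3 were higher and 0 lower. On chromosome 8, the 3 measured members around ZNF7 and ZNF16 were higher, and the stretch had a ratio of 4.88 (4.48 to 5.31). On chromosome 5, the interval shared by ZNF354C, ZNF454 and ZNF879 held 14180, 4059, 11087 and 3061 fragments, a ratio of 4.91 (4.72 to 5.11), while ZNF354A and ZNF354B, in the same neighbourhood, had ratios of 1.04 and 1.08. Members of 1 cluster therefore did not all move alike.

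The second stretch of chromosome 7 stood apart from the first. At 149069641 to 149867479, from ZNF786 to ZNF862, 1 of 7 measured members was higher and 3 were lower, with 6544, 7846, 6264 and 8507 fragments and a ratio of 0.816 (0.790 to 0.843). Of 2 other genes measured there, 0 were higher and 1 was lower. On chromosome 16 at 30378312 to 31917357, from ZNF48 to ZNF267, none of 6 measured members was higher and 4 were lower, with a ratio of 0.866 (0.846 to 0.887). The other genes of that stretch had 20 measured, of which 0 were higher and 13 lower. Over the whole of chromosome 16, 1 member was higher and 7 were lower of 13 measured, with a median log2 ratio of -1.02 beside -1.06 over its other genes. On chromosome 1, 8 of 12 measured members were higher, with a median of 3.32 beside -0.86 over the other genes. These 8 include the 5 members from ZNF670-ZNF695 to ZNF124, of which ZNF670, ZNF695 and ZNF670-ZNF695 share an interval and are not independent.

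**Figure D5:**
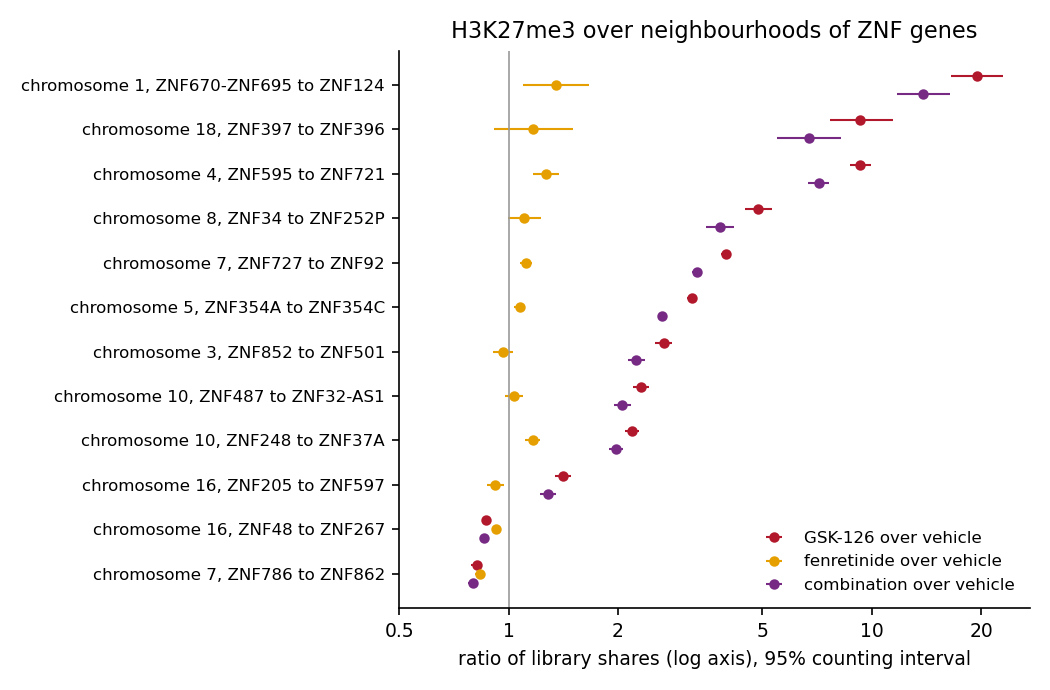
Ratio of library shares to vehicle (log axis, with the 95% counting interval) over all intervals in each of 12 neighbourhoods of ZNF genes, for GSK-126, fenretinide and the combination. The ratio with GSK-126 ran from 19.5 on chromosome 1 to 0.816 in the second stretch of chromosome 7, and the fenretinide ratios from 1.35 to 0.835.

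Some members have near-identical copies whose reads can be split or doubled in counting, and the handling of reads with several matches is not given in the sources used here. This applies to ZNF658 and its pseudogene ZNF658B, ZNF705A, ZNF705B, ZNF705D and ZNF705G, ZNF280A and ZNF280B, ZNF286A and ZNF286B, ZNF717, ZNF806, ZNF735 and ZNF679, whose values are uncertain. ZNF658B had 110, 6, 55 and 2 fragments, and ZNF717 had 2698, 797, 2092 and 515. ZNF705G, with 54, 130, 55 and 157, was lower with GSK-126. Without these genes, 66 of 139 measured members were higher and 30 were lower.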

How the data were processed

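The authors deposited raw fragment counts for consensus intervals, made with featureCounts 2.0.1 per the file headers (read pairs, no strand, minimum overlap fraction 0.2, fragments counted in every interval they overlap). They also deposited 1 annotated peak list per library, with a peak score of no stated scale and a distance to the nearest start, from MACS2 2.1.0 (the submitters' processing notes), on GRCh38 (the same notes). The aligner and the control for calling are not given in the sources used here. Coordinates are 1-based.

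Members' intervals were summed, with a floor of 3 counts for a 0. Log2 ratios used a pseudocount of 0.5. Counting intervals cover counting error only and compare libraries. Genes named are, for GSK-126 against vehicle, the 10 largest rises and falls by the counting bound nearest 1 with at least 100 fragments, 5 each for the other comparisons, and those at the limits, in shared intervals or of highest vehicle level. Members, lists and tests were chosen with earlier results of these data known. A planned class by KRAB domain was not made, since no protein table was used here. The calling rule was run on simulated Poisson counts with known ratios. These hold no variation between libraries beyond counting error, so they do not test the calls against such variation. Input and RNA libraries were not analysed here. Scaling alternatives used DESeq2 1.42.0 and edgeR 4.0.16, only for scaling factors. Software was R 4.3.3 and Python 3.11.15 with scipy 1.17.1, matplotlib 3.10.9, pandas 2.3.3 and numpy 2.4.6.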

Additional observations from a re-analysis of the deposited data

How the results depend on the processing

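With background scaling, the median log2 ratio over members became -0.093 for GSK-126 against vehicle, -0.51 for the combination against vehicle and -0.21 for the combination against fenretinide, all opposite in sign to those reported, and -0.17 for fenretinide against vehicle. Members called lower then numbered 52, 58 and 47 in the 3 comparisons named, members higher with the combination over vehicle 42, and ZNF spans lower with GSK-126 27. Fenretinide then had 1 higher and 3 lower, and the combination 2 lower than GSK-126. DESeq2 size factors gave fenretinide 1 higher, 3 lower and a median of -0.16, and the combination against GSK-126 2 lower and -0.28. TMM factors gave 3 lower and -0.16 for fenretinide, and 2 lower and -0.27 for the combination against GSK-126.

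With only intervals that hold a vehicle peak of the gene, medians became -0.11 for GSK-126 and -0.079 for the combination over vehicle, opposite in sign, and -0.082 for the combination against GSK-126. Requiring a vehicle peak favours low ratios to vehicle by construction. Members called higher were then 31 for GSK-126, 29 for the combination and 1 for fenretinide over vehicle, 25 for the combination over fenretinide and 1 over GSK-126. With a 2 kb distance, fewer members were measured (46 for GSK-126 over vehicle). There, 25 were higher and 8 lower with GSK-126, 24 and 8 with the combination (median 1.05), and 1 and 0 with fenretinide over vehicle. The combination had 21 higher and 4 lower than fenretinide, and 1 lower than GSK-126. A 50 kb distance gave fenretinide 1 higher and 0 lower, and the combination 1 lower than GSK-126.

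A minimum of 200 fragments left 19 lower with GSK-126 and 15 with the combination over vehicle, 7 with the combination over fenretinide, and 1 higher and 0 lower with fenretinide. No minimum gave fenretinide 8 higher and 4 lower, the combination 26 lower than fenretinide, and 1 higher and 2 lower than GSK-126. A ratio of 1.5 gave fenretinide 6 higher and 8 lower, the combination 47 lower than vehicle and 40 lower than fenretinide, and 1 higher and 11 lower than GSK-126. Fewer or more genes enter by construction under the distance and minimum settings. By construction also, another scaling shifts every log2 ratio of a comparison by the same amount, and a ratio of 1.5 is a looser limit. Any other cause of the changes was not tested. For GSK-126 against vehicle, single genes turned round at ZNF267 with 50 kb (log2 1.22) and at ZNF273 (-0.69), ZNF7 (-4.0) and ZNF670-ZNF695 (-0.42, also with unshared intervals) with vehicle peaks only. Those of ZNF7 and ZNF670-ZNF695 rest on fewer fragments than the minimum of 50 for a call. Gene spans and the set without near-identical copies were alternatives added after seeing the data. No paired analysis was possible because each condition had 1 library, and no library could be left out.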

Other observations

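Members that are no protein-coding genes in RefSeq, by symbol or biotype, had 17 measured, of which 11 were higher and 1 lower with GSK-126 over vehicle, with a median log2 ratio of 1.55. The 131 measured protein-coding members had 60 higher and 30 lower, with a median of 0.38. Over all genes, 11.5% were higher and 41.4% lower. On chromosome 12, named after its values were seen, 3 of 5 members were measured. These 3, ZNF268, ZNF26 and ZNF891, were higher. Of 706 other genes measured on that chromosome, 66 were higher and 277 lower, with a median log2 ratio of -0.84. ZNF268 had 1411 fragments with GSK-126, 124 with fenretinide, 1097 with the combination and 90 with vehicle, and ZNF26 had 1237, 195, 870 and 113. Their ratios of GSK-126 to vehicle were 16.6 (13.4 to 20.8) and 11.6 (9.57 to 14.2).

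The members named next had few fragments and were chosen after their values were seen. ZNF148, a factor that binds GC-rich promoters, had 9 fragments with GSK-126, 44 with fenretinide, 22 with the combination and 63 with vehicle, a GSK-126 to vehicle ratio of 0.151 (0.0662 to 0.306). ZNF830 had 11, 75, 21 and 70, a ratio of 0.167 (0.0796 to 0.317). ZNF217, an amplified oncogene in breast cancer, had 37, 71, 35 and 66, a ratio of 0.595 (0.386 to 0.902) that was not called.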
